A study of Homo sapiens with 4 samples.

Results

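The 4 HOX gene clusters, HOXA to HOXD, were examined for binding of the transcription factor TEAD4 in 2 human gastric cancer cell lines, MKN28 and SNU216. The members are the TEAD4 peaks whose midpoint lies in a cluster or in the 100 kb on either side of it. They number 45 of the 51017 peaks of both lists: 35 of 39477 in MKN28 and 10 of 11540 in SNU216. In hg19 coordinates, the windows were chr7:27030000-27350000 for HOXA, chr17:46500000-46910000 for HOXB, chr12:54230000-54550000 for HOXC and chr2:176850000-177160000 for HOXD. DNA bound by TEAD4 was recovered by chromatin immunoprecipitation and sequenced (ChIP-seq). Each line gave 1 TEAD4 library, whose peaks the authors called against 1 input library made without antibody, so no group held replicates. The labels name no treatment, time point or genetic change in either line, and both are listed as gastric cancer cells. A peak list holds no expression values, so gastric marker genes could not be used to check that label.

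HOX genes encode homeodomain transcription factors that give cells their position along the head-to-tail axis of the body. Within a cluster the genes stand in the order in which they are used along that axis, from the paralogues numbered lowest at the anterior end to those numbered highest at the posterior end. Clusters that a tissue does not use are typically held silent by Polycomb repressor complexes. TEAD4 binds DNA and recruits YAP and TAZ, the co-activators held in check by the Hippo pathway, mostly at enhancers, and its family recognises elements with the core GGAATG.

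The middle of each window, without the 100 kb on either side, is called the core here. Cores were 120 kb long for HOXA, 210 kb for HOXB, 120 kb for HOXC and 110 kb for HOXD. In RefSeq on GRCh38.p14, the HOX genes of HOXB, HOXC and HOXD span 200.2 kb, 117.2 kb and 103 kb, with 10, 9 and 9 genes. Read from low to high coordinates, the order there is HOXB1 to HOXB13, HOXC13 to HOXC4 and HOXD13 to HOXD1. Because the peaks are on hg19 and that annotation is on another build, a peak is placed by its position along the core and is not assigned to a gene, exon or intron. Without read counts in the lists, sequencing depth is unknown.

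HOXD was the only one of the 4 windows with 0 peaks in both lists. No promoter of a HOXD gene was therefore inside a called TEAD4 peak in either line. RefSeq promoters of 8 of the 9 HOXD genes were at hand, each running from 250 bases before the gene start to 50 after it. The TEAD core element, GGAATG or CATTCC on the strand printed, was present in 4 of the 8, those of HOXD13, HOXD10, HOXD8 and HOXD4. Over all 34943 RefSeq promoters of that length, 14.0% held it. The 250 bases before the start of these 4 genes are shown because they carry the letters of the element in a cluster without a called peak. All are on the plus strand of GRCh38.p14, 5′ to 3′, with the element in capitals. HOXD13 and HOXD10 are posterior HOX genes known from limb development, and HOXD4 and HOXD8 act further towards the head. Coordinates are chr2:176092471-176092720 for HOXD13, chr2:176116528-176116777 for HOXD10, chr2:176129455-176129704 for HOXD8 and chr2:176151300-176151549 for HOXD4.
HOXD13: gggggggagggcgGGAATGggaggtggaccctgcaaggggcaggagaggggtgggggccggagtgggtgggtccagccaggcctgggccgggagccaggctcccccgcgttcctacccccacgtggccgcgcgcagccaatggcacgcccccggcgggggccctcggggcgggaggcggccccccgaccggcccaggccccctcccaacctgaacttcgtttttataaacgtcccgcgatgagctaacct
HOXD10: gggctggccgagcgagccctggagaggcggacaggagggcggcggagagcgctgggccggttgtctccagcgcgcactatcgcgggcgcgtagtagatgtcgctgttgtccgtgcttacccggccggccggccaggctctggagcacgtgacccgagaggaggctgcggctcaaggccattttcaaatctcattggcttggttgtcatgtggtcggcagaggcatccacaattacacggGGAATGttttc
HOXD8: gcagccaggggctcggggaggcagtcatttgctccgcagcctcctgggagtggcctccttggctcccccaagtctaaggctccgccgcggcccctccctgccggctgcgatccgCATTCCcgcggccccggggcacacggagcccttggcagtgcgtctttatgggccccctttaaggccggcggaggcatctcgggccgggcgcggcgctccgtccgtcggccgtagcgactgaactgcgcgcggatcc
HOXD4: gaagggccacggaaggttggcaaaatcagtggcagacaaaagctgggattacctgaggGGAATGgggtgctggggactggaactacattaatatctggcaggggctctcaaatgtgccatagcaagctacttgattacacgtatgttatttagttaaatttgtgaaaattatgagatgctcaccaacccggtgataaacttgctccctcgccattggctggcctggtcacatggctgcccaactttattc
The element began 237 bases before the start in HOXD13, 11 in HOXD10, 136 in HOXD8 and 192 in HOXD4. Among the other HOX genes in the table it was found in 2 of 16 HOXA promoters, 1 of HOXA3 and 1 of HOXA10, and in the promoter that HOXC4 and HOXC5 share. The 1 HOXB promoter in the table, that of HOXB1, held none. Such a match describes letters in a window and not an occupied site. The table held 20 of the 39 HOX genes.

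TEAD4 peaks were unevenly divided among the windows. Over the full lists the order of the window counts was the same in both lines: HOXB held most, then HOXC, then HOXA, and HOXD none. In MKN28 the counts were 17 in HOXB, 12 in HOXC, 6 in HOXA and 0 in HOXD. In SNU216 they were 6, 3, 1 and 0. Among stronger MKN28 peaks HOXC led instead, with 7 peaks against 6 in HOXB at a score of at least 100, and 7 against 4 when the MKN28 list was shortened to the length of the SNU216 list. The HOXB window is the longest, but per Mb it still led HOXC, with 41.5 against 37.5 in MKN28 and 14.6 against 9.38 in SNU216. Within the cores alone HOXC led HOXB per Mb, with 33.3 against 23.8 in MKN28 and 16.7 against 14.3 in SNU216. The HOXA core also stood above that of HOXB in MKN28, but below it in SNU216, at 8.33. The HOXC, HOXB and HOXA core values rest on 4, 5 and 3 peaks in MKN28 and 2, 3 and 1 in SNU216. Over all windows, MKN28 had 3.50 times as many peaks as SNU216, against 3.42 times over the whole lists. The windows make up 0.0439% of hg19 and held 0.0887% of MKN28 peaks (exact 95% interval 0.0618 to 0.123) and 0.0867% of SNU216 peaks (0.0416 to 0.159). Peak density in the windows was 2.02 times that of the genome in MKN28 and 1.97 times in SNU216, where the interval, 0.946 to 3.63, held 1. The 95% intervals cover counting error only and treat neighbouring peaks as independent. The genome length used counts assembly gaps. Against chromosomes 2, 7, 12 and 17 alone, the density was 1.68 times in MKN28 and 1.93 times in SNU216. Against the genome, the cores alone gave 1.68 and 2.87 times, and the 100 kb on either side alone 2.25 and 1.34 times. Differences between the lines have no replicate check.

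**Figure D1:**
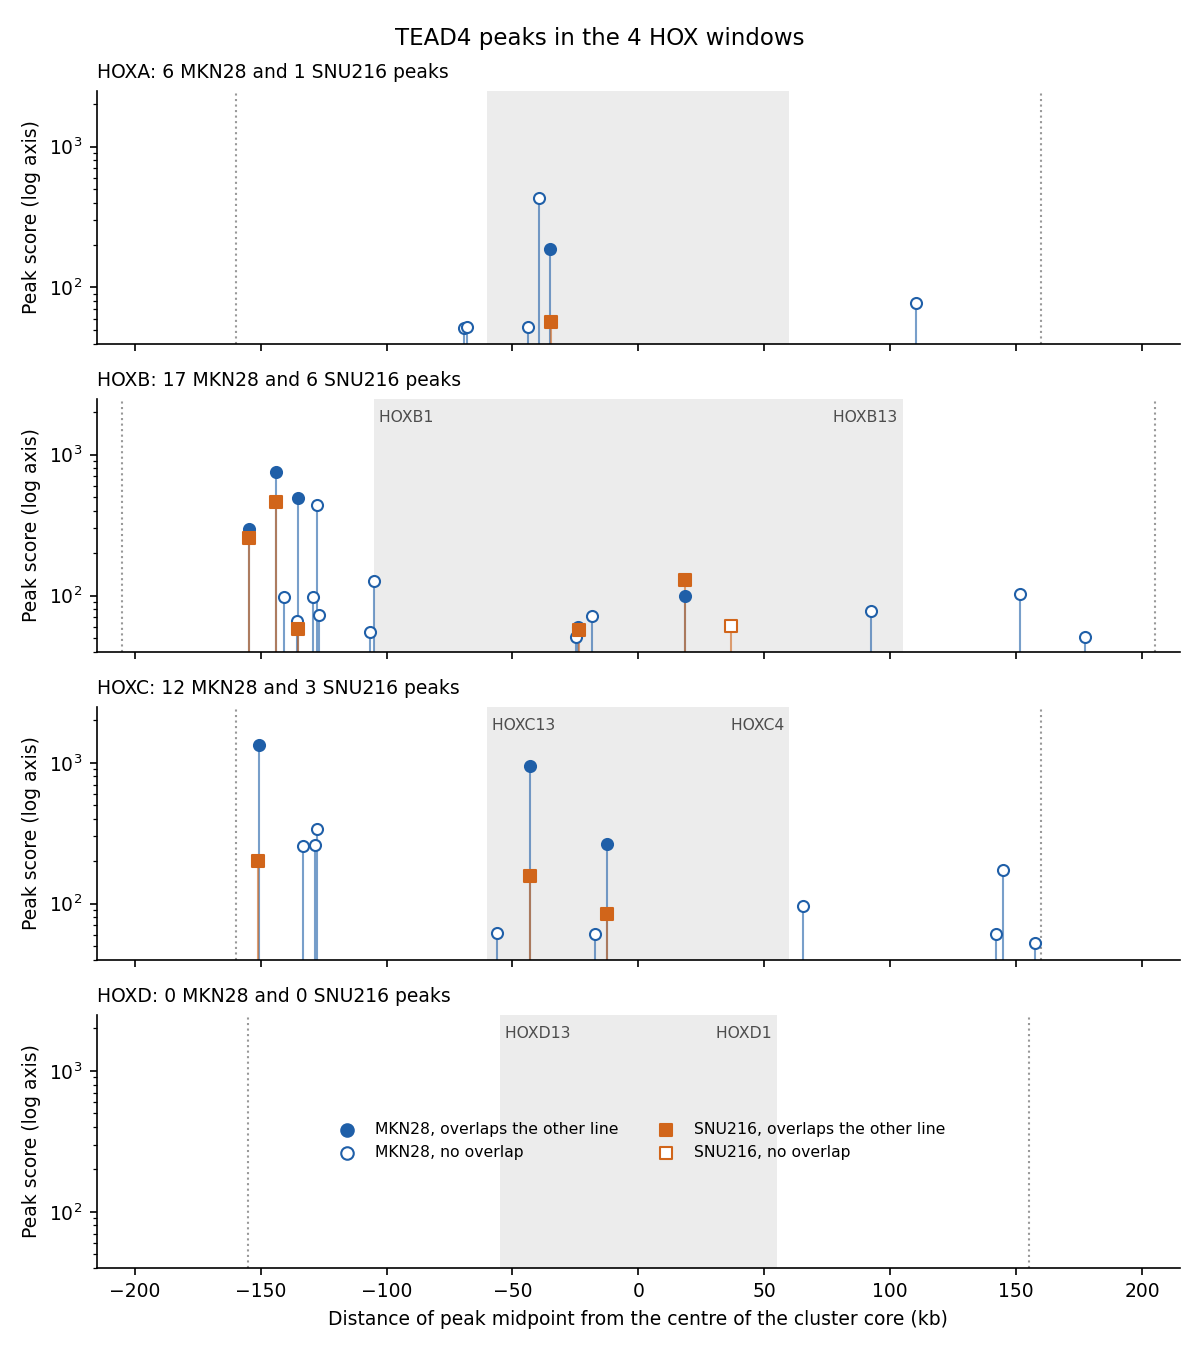
TEAD4 peaks in the HOXA, HOXB, HOXC and HOXD windows, by distance of the midpoint from the centre of the core (kb) and the authors' peak score (log axis). Circles are MKN28 and squares SNU216, filled where the peak overlaps one of the other line; grey marks the core, labelled with outer genes in RefSeq order except for HOXA, and dotted lines mark the window. The 17 MKN28 peaks of HOXB stand mostly left of the core, and HOXD is empty.

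Set against tiles of the same length over chromosomes 1 to 22 and X, the HOXB window was the fullest of the 4 when all peaks were counted. In MKN28, 4.91% of 410 kb tiles held at least 17 peaks, and in SNU216, 6.17% held at least 6. Of the HOXB peaks, 10 in MKN28 and 3 in SNU216 lay outside the core, in the 100 kb on its low-coordinate side. For HOXC, 8.17% of 320 kb tiles held at least 12 MKN28 peaks and 16.5% at least 3 SNU216 peaks. HOXA was close to an ordinary tile, since 29.0% held at least 6 MKN28 peaks and 49.7% at least 1 SNU216 peak. An empty window like HOXD was also common, at 23.1% of 310 kb tiles in MKN28, 51.7% in SNU216 and 19.9% in both at once. These tiles include assembly gaps. Whether tiles with as many genes as the HOX clusters hold similar counts was not tested, since no gene annotation on hg19 was used here.

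**Figure D2:**
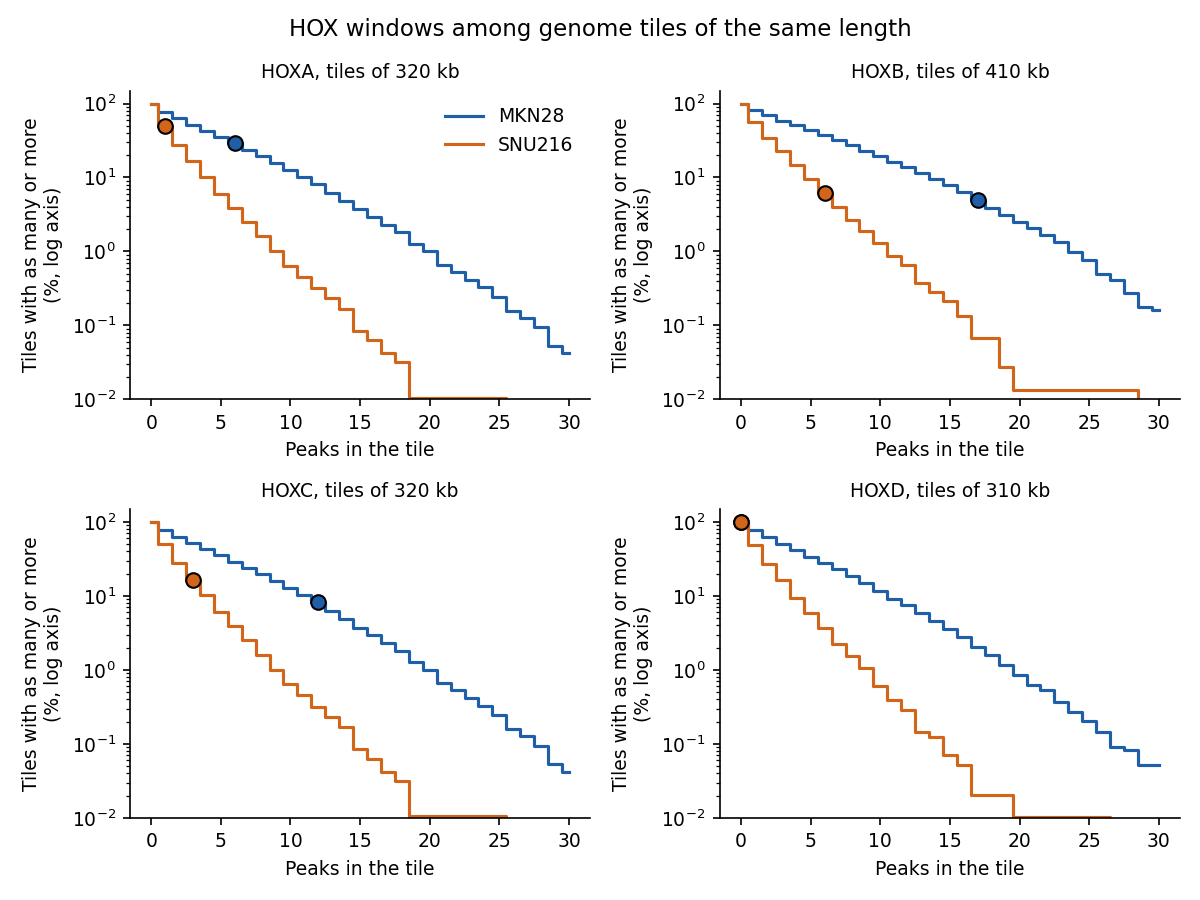
Share of genome tiles (%, log axis) that hold at least the number of peaks on the horizontal axis, for tiles as long as each HOX window, with MKN28 in blue and SNU216 in orange. Dots mark the HOX windows: HOXB sits at 4.91% and 6.17%, HOXA at 29.0% and 49.7%, and both HOXD dots coincide at 0 peaks.

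In HOXB the strongest binding lay outside the core, on the side of HOXB1. A run of 10 MKN28 peaks covered 13.2% of the 50.3 kb of chr17:46549905-46600168, with all midpoints in the 100 kb on that side. From each MKN28 peak on chromosomes 1 to 22 and X, a stretch of that length held at least 10 peaks in 0.380% of cases, and the median was 2. The run was singled out after its values were seen, and the length compared was set by its own first and last peak. The 0.380% is therefore a description and makes the run look rarer than a length set beforehand would. On the low-coordinate side of HOXB1, the next protein-coding gene in RefSeq on GRCh38.p14 is SKAP1, which encodes an adaptor of T cell signalling. The peaks of the run were not assigned to either gene.

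The strongest peak of the HOXB window, chr17:46560336-46562062, scored 749 in MKN28, above 96.2% of that list, and at 1727 bp was the widest in any HOX window. Its SNU216 counterpart, chr17:46560868-46561573, scored 459 and stood above 95.3% of its own list. It was the highest-scoring SNU216 peak of all 4 windows. The score is the value the authors' peak caller wrote for each peak; its scale is not stated and it depends on depth, so it is read through its rank within 1 list. A neighbour at chr17:46549905-46550880 scored 297 in MKN28 and, at chr17:46549916-46550762, 255 in SNU216, above 84.1% and 86.8% of the lists. These sites ranked alike in both lines. By contrast, chr17:46569691-46570330 stood above 91.9% of the MKN28 list with a score of 490, while its SNU216 partner, chr17:46569772-46570108, scored 57.9 and stood above 18.6%. Another strong MKN28 peak, chr17:46577219-46577837, scored 443, above 90.7% of its list, and had no SNU216 peak. The other 6 peaks of the run scored from 55.4 to 127 and also lacked an SNU216 peak. The last of them, chr17:46599734-46600168, crossed the core boundary, with its midpoint outside the core.

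Inside the HOXB core, peaks were weak in both lines. The 5 MKN28 peaks scored from 50.4 to 99.9, and 4 of them stood below the middle of their list. Along the core, from the HOXB1 end at 0% to the HOXB13 end at 100%, they lay at 38.2%, 38.7%, 41.2%, 58.8% and 94.0%. SNU216 had 3 peaks there, at 38.7%, 58.8% and 67.5%. Among the 9 sites called in both lines, that at 58.8% was the only one with the higher score in SNU216, with 130 at chr17:46723417-46723752 against 99.9 at chr17:46723445-46723721 in MKN28. Its midpoints were 1.5 bp apart. The site at 38.7% scored 56.7 at chr17:46681135-46681435 in SNU216 and 59.5 at chr17:46681036-46681441 in MKN28, near the threshold of both lists. The SNU216 peak at 67.5%, chr17:46741549-46741885, scored 61.3 and was the only one of the 10 SNU216 peaks without an MKN28 partner. On the HOXB13 side, outside the core, MKN28 had 2 peaks, with scores of 102 and 50.9, and SNU216 had none.

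HOXC held the strongest peaks of all 4 windows, in MKN28. All 3 of its SNU216 peaks had an MKN28 partner, as did 59.3% of the whole SNU216 list. The highest score, 1329 at chr12:54238745-54239655, ranked 380 in the MKN28 list, above 99.0% of it. It lay 90.8 kb outside the core, on the side of HOXC13. Its SNU216 partner at chr12:54238610-54239211 scored 201 and stood above 81.7% of its list. Inside the core, 14.1% of the way from the HOXC13 end, chr12:54346669-54347272 scored 948 in MKN28, rank 895 and above 97.7% of the list. This was the strongest peak within the core of any HOX cluster. In SNU216 the site, chr12:54346909-54347271, scored 157 and stood above 74.6% of the list. At 39.6% of the core, chr12:54377261-54377896 scored 265 in MKN28 (above 81.8%) and chr12:54377360-54377708 scored 84.7 in SNU216 (above 49.7%). In all 3 pairs the MKN28 peak ranked higher in its list than the SNU216 peak in its own.

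The other 9 MKN28 peaks of HOXC had no SNU216 counterpart, in a list where only 17.1% of peaks had one. A group of 3 stood outside the core on the HOXC13 side, at chr12:54256432-54257141, chr12:54261145-54261796 and chr12:54262118-54262864, with scores of 255, 261 and 341. Each was above at least 81.0% of the list. The other 2 core peaks scored 61.6 and 60.8, at 3.1% and 35.7% of the core. All 4 core peaks thus lay in the part nearer HOXC13, which holds the posterior HOXC genes and HOTAIR, a long noncoding RNA. On the HOXC4 side, 4 peaks scored from 52.6 to 174. SNU216 had no peak from chr12:54377708 to chr12:56114854, a gap of 1737 kb that ran through the rest of the core. Of all SNU216 gaps, 2.03% were at least as long, and these took up 23.8% of chromosome length, centromeres included.

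HOXA had few peaks, and 3 of its 6 MKN28 peaks stood within 10 kb of one another near the low-coordinate end of the core. The strongest, chr7:27150164-27150917, scored 430 and stood above 90.3% of the list, 17.1% of the way from the low-coordinate to the high-coordinate end of the core. No SNU216 peak overlapped it. At 20.9%, chr7:27154806-27155280 scored 187 in MKN28 (above 73.4%) and chr7:27154932-27155273 scored 56.9 in SNU216 (above 16.5%). That was the only SNU216 peak of the HOXA window. The third MKN28 peak of the core scored 52.1, at 13.3%. Of the other 3 MKN28 peaks, 2 lay just outside the core on the low-coordinate side, with scores of 51.7 and 52.6, and 1 on the high-coordinate side, with a score of 77.4. The rest of the HOXA core, where the posterior genes HOXA9 to HOXA13 stand last in order, held no peak in either list. The gap there measured 144.6 kb for MKN28 and 562 kb for SNU216. In the whole lists, 12.1% of MKN28 gaps and 11.8% of SNU216 gaps were at least as long. Such gaps took up 58.6% and 58.1% of chromosome length, centromeres included, so a peak-free stretch of this length was common in both lists.

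HOXD lay in a long stretch without TEAD4 peaks, much longer than its window. In MKN28 the nearest peaks were chr2:175863018-175863508, with a score of 78.7, and chr2:177166159-177166544, with a score of 54.7. The second of these was 6.4 kb beyond the window. The gap between them was 1303 kb, beside a median of 25.9 kb over all 39420 MKN28 gaps. Gaps at least as long made up 9.81% of the length of chromosomes 1 to 22 and X, centromeres included. In SNU216 the gap was 2895 kb, from chr2:175307459-175307882 (score 123) to chr2:178202767-178203286 (score 51.7). The median of the 11499 gaps in that list was 79.8 kb, and gaps at least as long as that across HOXD made up 12.9% of the same chromosomes. Such gaps were few, 122 of the MKN28 gaps (0.309%) and 84 of the SNU216 gaps (0.73%). The shares of chromosome length count centromeres and assembly gaps, where no peak could be called. How common such a place is in the remaining sequence was not measured. HOXD is flanked by regions poor in genes. The peak-free stretch also covers the microRNA gene MIR10B, which stands between HOXD8 and HOXD4 in RefSeq. A site without a peak is one below the authors' threshold and may still be bound.

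**Figure D3:**
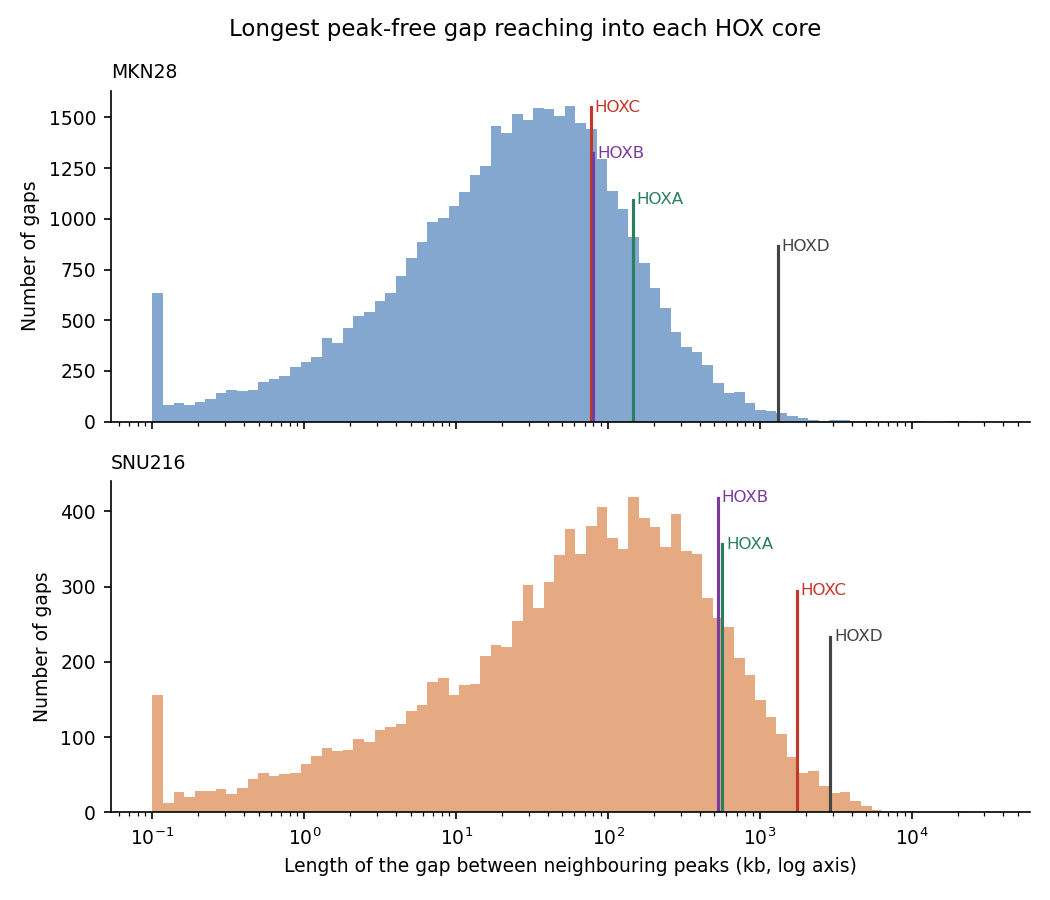
Lengths of all gaps between neighbouring TEAD4 peaks (kb, log axis; gaps under 0.1 kb are drawn at 0.1 kb) in MKN28 and SNU216, with the longest gap that reaches into the core of each HOX cluster marked. The HOXD gap is the longest of the 4 in both lists, at 1303 kb and 2895 kb, and in SNU216 the HOXC gap follows at 1737 kb.

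Most SNU216 peaks of the HOX windows were also MKN28 peaks. Of the 10, 9 overlapped an MKN28 peak by at least 1 bp (90.0%, exact 95% Clopper-Pearson interval 55.5 to 99.7), against 59.3% of the whole SNU216 list. Conversely, 9 of the 35 MKN28 peaks overlapped an SNU216 peak (25.7%, 12.5 to 43.3), against 17.1% of the whole MKN28 list. The MKN28 interval holds the share of its whole list and the SNU216 interval holds 59.3% as well, so neither share could be told from its list at these numbers. By cluster the shared sites numbered 5 in HOXB, 3 in HOXC and 1 in HOXA. They lay in the core at 5 of the 9 sites. The MKN28 peak was the wider in 8 of 9 pairs, against 82.4% of all 6841 pairs. In 7 of the 9 pairs the SNU216 peak lay wholly inside its MKN28 partner. The share of all pairs with this trait was not counted, so it is not read as particular to HOX.

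In 8 of the 9 shared sites the MKN28 score was the higher, against 75.3% of all pairs. The ratio of MKN28 to SNU216 score ran from 0.769 to 8.47 with a median of 3.13, beside a median of 1.77 (quartiles 1.01 and 3.30) over all pairs. It was 6.61, 6.05 and 3.13 at the HOXC sites and 3.29 at the HOXA site. At the HOXB sites it was 1.16, 1.63, 8.47, 1.05 and 0.769. Scores in the lists depend on depth, so these ratios describe these 2 libraries only.

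**Figure D4:**
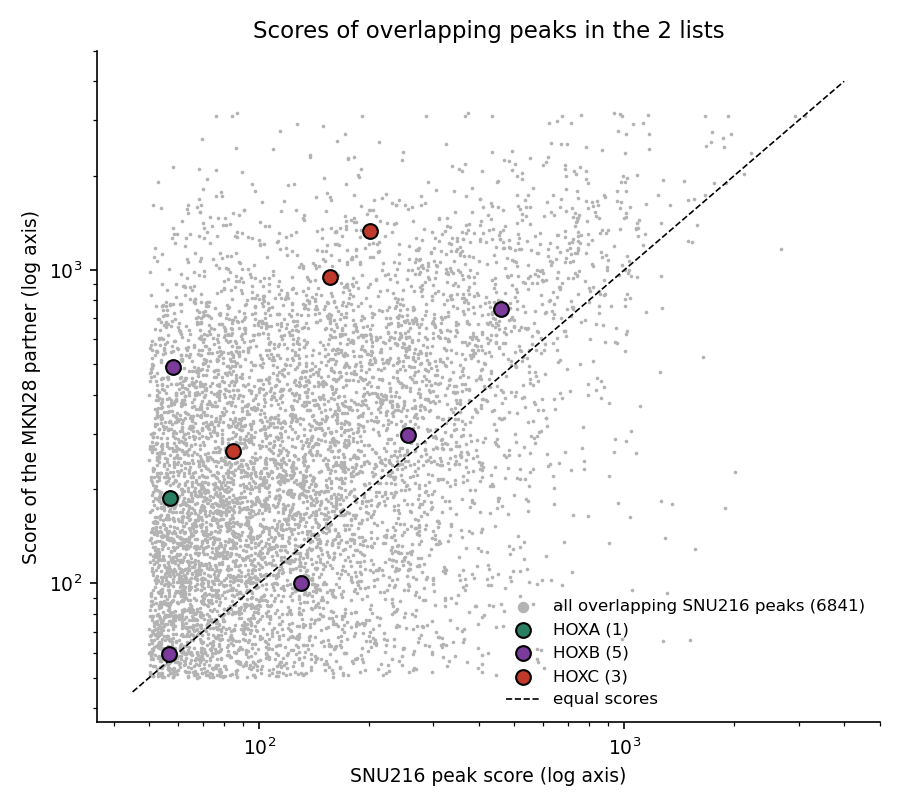
Score of each overlapping SNU216 peak against that of its highest-scoring MKN28 partner (both log axes), for all 6841 overlapping SNU216 peaks in grey and the 9 of the HOX windows in colour, with the line of equal scores. The 3 HOXC sites and the HOXA site lie above the line with ratios of 3.13 to 6.61, and the 5 HOXB sites spread from 0.769 to 8.47.

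By their medians, the HOX peaks were close to the whole list in MKN28, while the 10 SNU216 peaks scored higher and were narrower. Their median score was 96.9 in MKN28 (quartiles 61.0 and 263) beside 99.8 for the whole list (65.3 and 198). In SNU216 it was 107 beside 84.7. Of the 35 MKN28 peaks, 15 scored at least 100 (42.9%, 26.3 to 60.6), against 49.9% of the list, and of the 10 SNU216 peaks 5 did, against 42.2%. The highest-scoring 10% of the MKN28 list took in 6 of the 35 MKN28 peaks, against 9.99% of all. Of those 6 MKN28 peaks, 3 were in HOXB, 2 in HOXC and 1 in HOXA. Median widths were 535 bp in MKN28 beside 525 bp, and 346 bp in SNU216 beside 408 bp. Shared MKN28 peaks had a median score of 297 and the other 26 one of 75.3. The same split of the whole list is not given here, so this is not read as particular to the HOX windows.

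MKN28 had 12 peaks in the cores and 23 in the 100 kb on either side, or 21.4 and 28.8 peaks per Mb. Of those 23, 10 were the run beside HOXB. Without that 100 kb the surroundings held 13 peaks, or 18.6 per Mb, beside 21.4 in the cores. That 100 kb was left out after its density was seen, so a lower value had to follow. SNU216 had 6 and 4, or 10.7 and 5.00 peaks per Mb, and 3 of the 4 lay in the same 100 kb beside HOXB. The median score in the cores was 75.0 in MKN28 and 73.0 in SNU216, below the 98.3 and 228 of the surroundings. HOXB and HOXC went this way in both lines, but on few peaks. In SNU216 HOXB had 3 peaks in the core and 3 around it, and HOXC 2 and 1. In MKN28 these numbers were 5 and 12 for HOXB and 4 and 8 for HOXC. HOXA went the other way in MKN28, with 187 in the core and 52.6 around it, from 3 peaks each. No SNU216 peak stood in the high-coordinate 100 kb of any cluster, where MKN28 had 7. Over the genome the lists held 3.73 SNU216 and 12.8 MKN28 peaks per Mb. Few SNU216 peaks are thus to be found in stretches this short, and the absence is not read as particular to HOX. These are counts from 1 library per line, and the difference between lines was not tested.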

How the data were processed

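Per the submitters' processing notes, CASAVA 1.8, Bowtie2 2.0.0, MACS and hg19 were used. MACS settings were not given in the sources used here, nor its version or the read filtering. The authors deposited 1 peak list per TEAD4 library, each peak with a position and a score, without header, summit or read count. Input libraries were not analysed here on their own.

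Positions were converted to 1-based coordinates. A peak belonged to a window by its midpoint, and overlap meant at least 1 bp. Tiles used the hg19 chromosome lengths of circlize 0.4.16. Shares carry exact 95% Clopper-Pearson intervals, for counting error only. Every peak was eligible to be named, since each list held few in the windows. Promoters, their sequences and gene order came from RefSeq on GRCh38.p14 and no coordinate was moved between builds. The motif search in promoters was added after seeing the data. Python 3.11.15, pandas 2.3.3 and scipy 1.17.1 were used, and the code was checked on simulated data. The windows and gene lists were chosen with earlier results of these data known.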

Additional observations from a re-analysis of the deposited data

How the results depend on the processing

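The MKN28 count of 35 fell to 15 at a score of at least 100, to 13 with lists of equal length and to 12 without the 100 kb on either side. The SNU216 count of 10 became 5 and 6 in the first and last of these. With lists of equal length, 53.8% of MKN28 peaks in the windows overlapped an SNU216 peak, beside 35.2% of the shortened list. At a score of at least 100, the MKN28 medians were 297 for the score and 640 bp for the width, beside 199 and 620 bp in the list. Fewer peaks by construction lie behind the lower counts. Of the values for all 4 windows together, the other 32 stayed within their intervals, or within 1.5 times for counts. Of those for single clusters, 24 did so and 18 moved, among them window counts and tile shares. Over only tiles with a peak in either list, 36.0%, 5.82% and 10.1% held as many MKN28 peaks as HOXA, HOXB and HOXC. For SNU216 these shares were 61.6%, 7.31% and 20.4%. HOXD held 0 peaks in each setting. Gene context and motifs of peaks were not run, because no hg19 sequence or annotation was used here. No paired analysis was possible because each line has 1 library without a replicate number, and no replicate could be left out. Unknown depth limits statements on missing peaks.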
